A study of Mus musculus with 9 samples.

Results

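The transcription factor gene Myc and 39 genes of ribosome biogenesis were measured by RNA-seq in 9 primary mouse pancreatic tumors. The 40 genes were taken by name from a table of 54453 genes, and all 40 were found and passed the filter on low counts that kept 16169 genes. The tumors came from KPC mice, a pancreatic cancer model that relies on Cre recombinase made in the pancreas. The 4 tumors labelled Scrib WT carried the genotype written KPF/+C and bore the numbers 2, 3, 6 and 9. The 5 labelled Scrib null carried KPF/+CSF/F and bore the numbers 7, 14, 15, 18 and 23. Both groups therefore shared the KPC alleles, and Cre acts only in the cells that made it, so stromal and immune cells of a null tumor would keep an intact Scrib. The sources used here name neither the promoter that drives Cre nor the ages of the mice. Polyadenylated RNA was taken from whole frozen tumors. Levels below are CPM, counts scaled to a common library size, over libraries scaled by the trimmed mean of M values. Per-tumor values are listed in the order WT 2, 3, 6 and 9 and then null 7, 14, 15, 18 and 23, and means are given ± SD over 4 WT and 5 null tumors.

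Ribosomes are made in the nucleolus. RNA polymerase I copies the ribosomal DNA into a long precursor RNA, small nucleolar ribonucleoproteins (snoRNPs) modify it, and a large set of assembly factors folds and cuts it into the small and the large ribosomal subunit. MYC, which binds the DNA sequence CACGTG together with its partner MAX, is known to switch on many of these factors and is a common driver of growth in pancreatic cancer.

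Several facts of the whole data set bear on every value below. Estimated counts per tumor summed to between 10145830 and 27596832, the lowest count of any of the 40 genes in any tumor was 78, and their lowest level was 6.70 CPM. No gene was called higher in the null tumors and 2 genes (0.0124% of 16169) were called lower at a Benjamini-Hochberg adjusted p under 0.05 by edgeR's quasi-likelihood test. At an unadjusted p under 0.05, 1236 genes were higher and 1623 lower. Scrib itself did not separate the groups, with 70.5 ± 21.4 CPM in WT tumors and 60.3 ± 24.6 CPM in null tumors (log2 fold change -0.23, SE 0.31, edgeR adjusted p = 0.712), and the library labelled null 7 had the highest level, 102 CPM. Null 7 and WT 3 stood farthest out on the leading principal components. By Xist and Y-linked transcripts WT 3, null 7 and null 18 were male and the other 6 female. In WT 3 the 100 most abundant genes took 32.5% of its counts, while elsewhere they took 18.8% to 25.8%. Summed levels of 8 epithelial markers lay between 8361 and 12064 CPM in WT tumors and between 6998 and 13258 CPM in null tumors. The labels do not say that the tumors came from separate mice. The sex calls place both sexes in each group, so neither group came from a single mouse, but they show no more than that. The p-values reflect the variation among these 9 samples, part of which may be technical.

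Myc was higher in every null tumor than in 3 of the 4 WT tumors, and 1 null tumor lay far above all others. It lies on chromosome 15 (61985391 to 61990374, plus strand, GRCm38), 14.06 Mb from Scrib. The WT tumors had 95.3, 90.7, 183 and 111 CPM and the null tumors 1032, 159.9, 201, 179 and 157 CPM. Null 7 was thus 5.93 times the mean of the other 4 null tumors, and WT 6 lay inside the range of those 4, so the groups overlapped. The group means were 120.0 ± 42.9 CPM in WT tumors and 346 ± 384 CPM in null tumors, a fitted difference of 2.88-fold (95% interval 1.12 to 7.39). On the log2 scale the difference was 1.53 (SE 0.62, edgeR adjusted p = 0.250). Without null 7 it was 0.55 (SE 0.26, edgeR adjusted p = 0.340).

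The high Myc value of null 7 was shared by its chromosomal neighbours, which were looked at after their values were seen. Of 15 tested genes within 3 Mb of Myc on chromosome 15, 5 were more than 5-fold above the highest other tumor in null 7, against 18 of all 16169 genes (0.111%). These were Fam84b with 1753 CPM against 35.7 to 128 CPM in the other tumors, 9930014A18Rik (126 against 2.06 to 7.64 CPM) and Gm38563 (14.0 against 0.287 to 0.893 CPM), Myc itself, and the long noncoding RNA gene Pvt1 (194 against 2.37 to 7.56 CPM). The 5 genes lay side by side among the tested genes and spanned 1.56 Mb, from 60818994 to 62378096, and their levels in null 7 were 5.14 to 25.7 times the highest other tumor. The nearest tested genes outside the span did not share the pattern. On one side the predicted gene Gm6392 had 0.757 CPM in null 7 and 0.103 to 1.20 CPM elsewhere, and next to it the pseudokinase gene Trib1 had 104 CPM in null 7 and 46.0 to 108 CPM elsewhere. Fam49b on the other side had 79.2 CPM in null 7 and 55.6 to 83.4 CPM elsewhere. No DNA measurement was used here, and what raised these genes in null 7 was not tested.

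**Figure D1:**
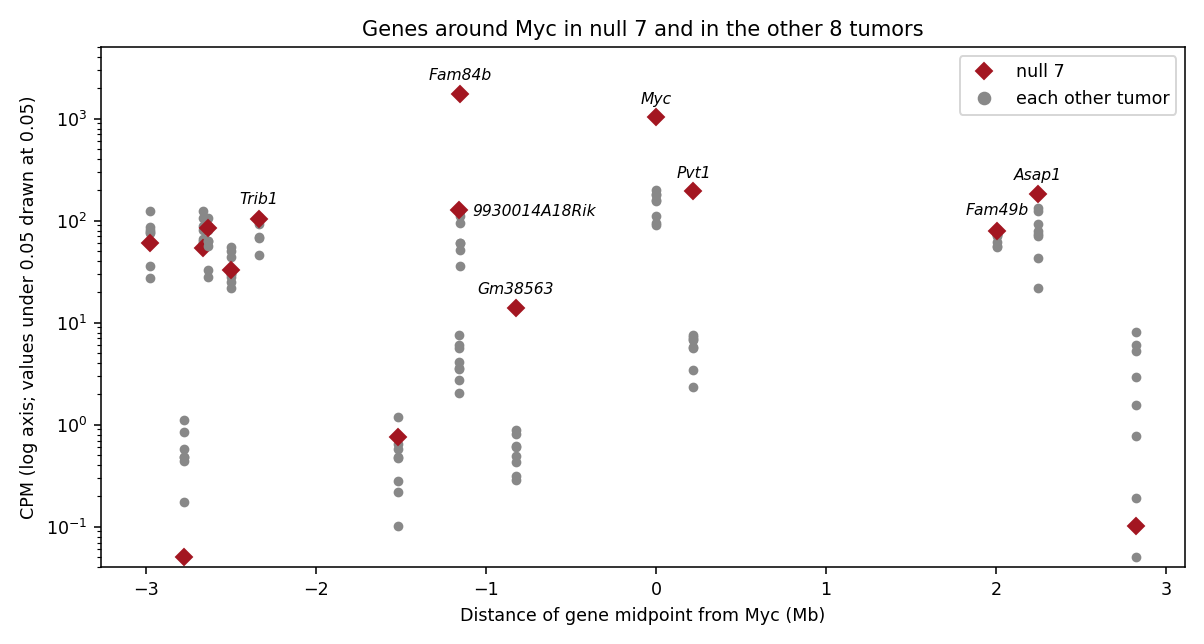
Levels of the 15 tested genes within 3 Mb of Myc (vertical log axis, CPM) by distance of the gene midpoint from that of Myc (horizontal axis, Mb), with null 7 as red diamonds and each other tumor as a grey circle. The 5 genes from Fam84b to Pvt1 lie far above their own grey circles in null 7 (Fam84b and 9930014A18Rik share nearly the same position), and Trib1 and Fam49b lie within or at the edge of them.

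Promoter windows from RefSeq (GRCm38.p6), from 250 bases before to 50 bases after the transcript start, were found for 33 of the 40 genes. Those of Myc, Tcof1, Fbl, Npm1, Rrp12, Rrs1 and Bop1 were not among them. CACGTG, which reads the same on both strands, occurred in 8 of the 33 windows (24.2%), against 8.09% of 27025 genes in the table and 11.2% of the 11599 tested genes with a window. The 8 genes were Ltv1, Mybbp1a, Nop2, Pes1, Rrn3, Utp20, Utp4 and Wdr43. The excess sat after the start: 6 of the 33 windows (18.2%) held the motif in the 50 bases after it, against 1.78% of tested genes, and 2 (6.06%) in the 250 bases before it, against 9.44%. Counting CACGTG or its variant CACGCG on either strand, 18 windows (54.5%) held a match, against 27.5% of tested genes. A match describes letters and was not tested as a binding site. The windows printed here are those of the 3 genes that both held the motif and had an unadjusted p under 0.05 in the comparison of the groups, with CACGTG in capitals. Nop2 lies at chr6:125131633-125131932 on the plus strand with the motif 60 bases before the start, Mybbp1a at chr11:72441077-72441376 on the plus strand with the motif 40 bases after it, and Utp4 at chr8:106893390-106893689 on the plus strand with the motif 15 bases after it.
Nop2: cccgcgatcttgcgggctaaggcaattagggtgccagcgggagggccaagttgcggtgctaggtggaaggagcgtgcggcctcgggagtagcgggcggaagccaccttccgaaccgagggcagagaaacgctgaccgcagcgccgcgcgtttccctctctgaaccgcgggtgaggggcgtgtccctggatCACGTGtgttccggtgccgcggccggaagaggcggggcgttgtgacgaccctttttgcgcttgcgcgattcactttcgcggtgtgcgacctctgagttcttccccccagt
Mybbp1a: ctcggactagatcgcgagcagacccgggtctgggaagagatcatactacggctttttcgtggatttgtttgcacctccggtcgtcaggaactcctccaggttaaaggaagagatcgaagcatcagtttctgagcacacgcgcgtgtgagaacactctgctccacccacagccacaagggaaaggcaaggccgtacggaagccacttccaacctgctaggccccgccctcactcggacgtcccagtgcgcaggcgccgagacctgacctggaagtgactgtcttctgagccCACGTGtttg
Utp4: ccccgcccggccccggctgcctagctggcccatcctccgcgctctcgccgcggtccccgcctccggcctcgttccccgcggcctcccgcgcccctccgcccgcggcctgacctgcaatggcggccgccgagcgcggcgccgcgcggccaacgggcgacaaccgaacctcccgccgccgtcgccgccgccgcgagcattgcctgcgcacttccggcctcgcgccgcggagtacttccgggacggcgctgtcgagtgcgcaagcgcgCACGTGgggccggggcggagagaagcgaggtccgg

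The windows of Bms1 (chr6:118419368-118419667, minus strand) and Polr1a (chr6:71908803-71909102, plus strand), the 2 genes with the smallest p of the 40, are printed beside them. Neither held CACGTG in these 300 bases.
Bms1: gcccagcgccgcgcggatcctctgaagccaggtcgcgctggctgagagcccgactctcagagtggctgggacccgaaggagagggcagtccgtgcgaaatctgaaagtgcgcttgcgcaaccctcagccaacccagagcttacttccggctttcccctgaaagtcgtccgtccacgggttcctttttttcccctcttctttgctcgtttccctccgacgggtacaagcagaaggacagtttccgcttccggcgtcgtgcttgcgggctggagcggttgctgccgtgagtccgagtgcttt
Polr1a: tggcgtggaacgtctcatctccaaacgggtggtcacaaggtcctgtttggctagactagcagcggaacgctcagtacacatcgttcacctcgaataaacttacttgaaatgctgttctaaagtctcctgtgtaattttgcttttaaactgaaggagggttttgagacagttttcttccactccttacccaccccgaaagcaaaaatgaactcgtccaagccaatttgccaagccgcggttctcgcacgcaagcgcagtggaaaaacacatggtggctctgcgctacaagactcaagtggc

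Across the 39 factors, levels were mostly higher in the null tumors, by a modest amount, and no single factor passed the test adjusted over all genes. The fitted log2 fold change was above 0 for 35 of 39 factors, and for 36 of the 40 genes with Myc, against 47.8% of all genes tested. Its median over the factors was 0.56, against -0.03 over all genes, and 35 factors were also above 0 under the other 2 scalings tried. At an unadjusted p under 0.05, 18 of the 40 genes were higher and none lower, against 7.64% and 10% of all genes. In 12 genes every null tumor lay above every WT tumor, against 3.42% of all genes (none of the 40 had every null tumor below, against 3.49%), and these were Polr1a, Ubtf, Tcof1, Nolc1, Mybbp1a, Bms1, Nop14, Utp15, Heatr1, Nop2, Noc2l and Noc3l. Adjusted over all genes, 0 of the 40 passed by edgeR (adjusted p from 0.197 to 0.935) and by limma-voom. By limma-voom 17 were higher at an unadjusted p under 0.05, against 8.71% of all genes. DESeq2 called 8 higher after adjustment, against 1.52% of all genes. The 8 were Polr1a, Tcof1, Nolc1, Mybbp1a, Bms1, Nop14, Nop2 and Noc2l.

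Null 7 weighed heavily in these values. It was the highest of the 9 tumors in 35 of the 40 genes, against 17.2% of all genes, and WT 3 the lowest in 24, against 26.9%. It was the lowest tumor in none (20.7% of all genes), and WT 3 the highest in 3 (21%), namely Nhp2, Nop10 and Npm1. Factor levels in null 7 were 1.20 to 3.04 times the mean of the other null tumors, with a median of 1.84. The mean log2 CPM of the 39 factors was 5.79, 5.58, 5.97 and 5.75 in the WT tumors and 7.02, 6.15, 6.17, 6.19 and 6.02 in the null tumors. All 5 null tumors lay above all 4 WT tumors on this mean, with null 7 apart and the other 4 between 6.02 and 6.19. On the summed CPM of the 39 factors the groups overlapped, with 3027 to 3878 CPM in WT and 3566 to 7693 CPM in null tumors. There null 23, with 3566 CPM, lay below WT 6, with 3878 CPM. Without null 7 the median log2 fold change of the factors was 0.34, with 30 of 39 above 0 (47.7% of all genes), 13 of the 40 genes higher and none lower at an unadjusted p under 0.05 (6.71% and 8.61% of all genes) and 12 with no overlap between groups (4.17%). DESeq2 then called 5 (0.959% of all genes): Polr1a, Nolc1, Mybbp1a, Bms1 and Nop2. With WT 3 left out as well, the median was 0.29, 32 of 39 factors lay above 0, and 12 genes were higher at an unadjusted p under 0.05 (4.75% of all genes). DESeq2 without both tumors called 3 of the 40 (0.558% of all genes) and had 11 higher at an unadjusted p under 0.05 (5.67%), and edgeR in the 6 female tumors also had 11 (3.01%).

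**Figure D2:**
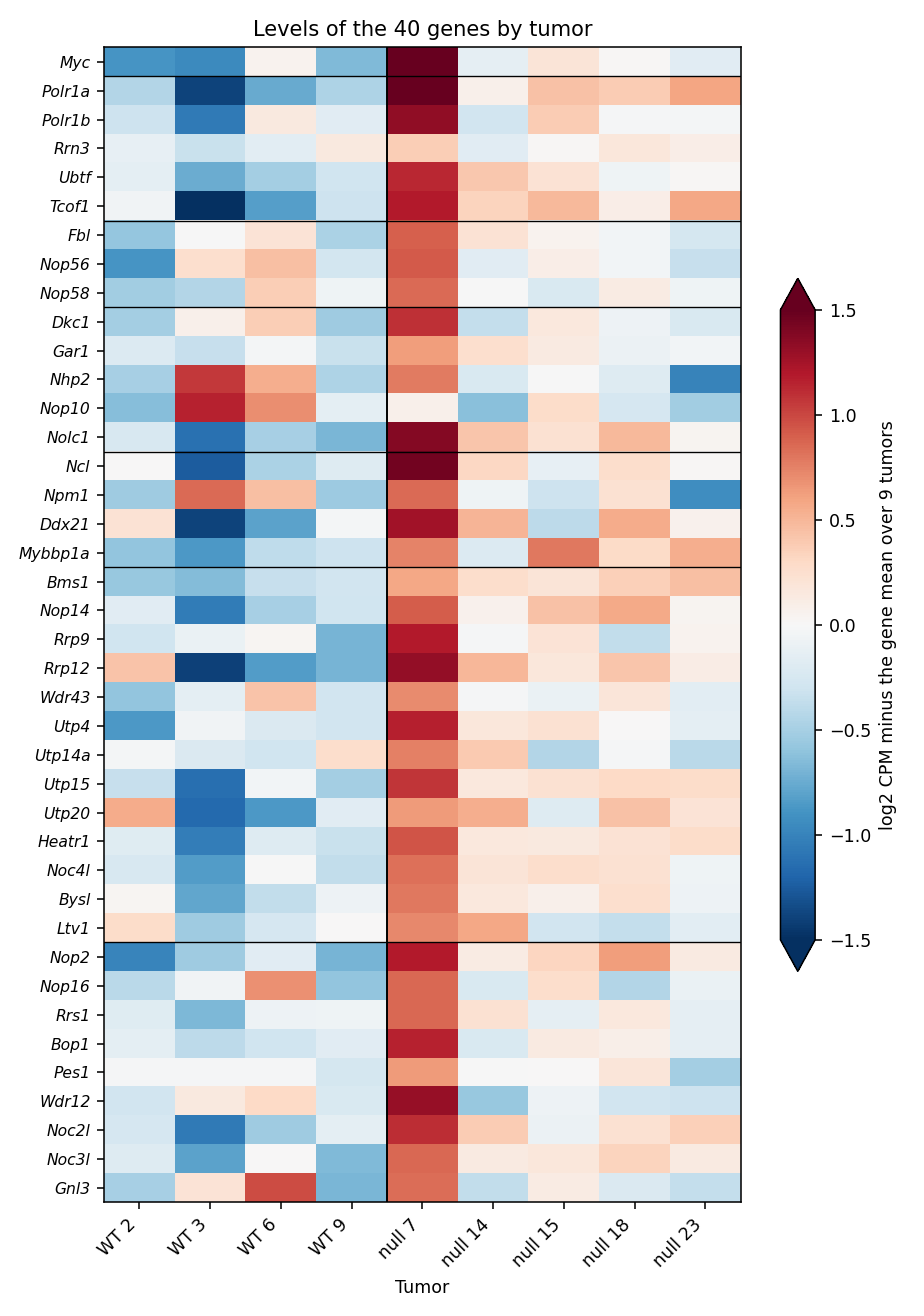
Level of each of the 40 genes (rows, grouped by role) in each tumor (columns) as log2 CPM minus the mean of that gene over the 9 tumors, with red above and blue below that mean and the scale ending at 1.5. The column of null 7 is red in nearly every row, and WT 3 is blue in most rows but red in Nhp2, Nop10 and Npm1.

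Markers of other cell types also differed between the groups. Markers of macrophages (10 of 10 tested genes), T cells (6 of 6), fibroblasts (9 of 9) and endothelium (8 of 8) all had fitted fold changes below 0 in the null tumors. So did 5 of 5 B cell and 7 of 7 neutrophil markers, against 52.2% of all genes. At an unadjusted p under 0.05, 8 macrophage, 3 B cell, 2 T cell, 2 fibroblast, 2 endothelial and 0 neutrophil markers were lower, against 10% of all genes. None passed the adjusted test. Acinar markers were mixed (3 of 8 tested genes above 0 and 5 below). They summed to 541 CPM in WT 6 and 299 CPM in null 15, against 7.10 to 73.0 CPM in the other tumors. Neutrophil markers summed to 2643 CPM in WT 3 and to 67.0 to 578 CPM in the other tumors. Summed macrophage markers ranged from 1947 to 3936 CPM in WT tumors and from 697 to 2271 CPM in null tumors. Fibroblast markers ranged from 2181 to 9272 and from 366 to 4527 CPM, endothelial markers from 226 to 491 and from 51.4 to 257.8 CPM, and T cell markers from 4.87 to 10.1 and from 2.88 to 7.97 CPM. None of the markers of these 4 lists was at 0 in all tumors. In bulk tissue, fewer cells of a type and less RNA per cell cannot be told apart. The mean log2 CPM over the 4 lists was 4.89, 4.57, 4.58 and 5.35 in the WT tumors and 2.55, 4.12, 4.43, 4.03 and 4.25 in the null tumors. The groups did not overlap on this mean, and null 7 was the lowest tumor. Among the WT tumors, WT 3 had the lowest level of the 39 factors and, close to WT 6, also the lowest marker mean. With this mean as a covariate, the median log2 fold change of the 39 factors was 0.11 with 23 above 0 (52.5% of all genes), and 3 of the 40 genes were higher and 3 lower at an unadjusted p under 0.05 (6.21% and 7.08% of all genes). Myc then had -0.21 (SE 0.42, edgeR adjusted p = 0.819). Since the covariate separated the groups by itself, its share and that of the genotype cannot be told apart.

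Transcription of ribosomal DNA was represented by 5 genes, all with fold changes above 0 (0.21 to 1.42 on the log2 scale). At an unadjusted p under 0.05, 3 of the 5 were higher, against 7.64% of all genes. Polr1a encodes the largest, catalytic subunit of RNA polymerase I. It had 54.2, 28.01, 43.5 and 53.2 CPM in WT tumors and 215, 77.5, 99.0, 95.5 and 110.4 CPM in null tumors, so that the lowest null tumor lay above the highest WT tumor. Its group means were 44.7 ± 12.1 and 119 ± 54.6 CPM, and its fold change of 1.42 (SE 0.33, edgeR adjusted p = 0.197) was the largest of the 39 factors and was 1.12 without null 7. Ubtf, the factor that binds and keeps open the ribosomal DNA, had 135, 89.0, 105 and 121 CPM in WT tumors and 328, 198, 174, 143 and 152 CPM in null tumors. These groups did not overlap either, but null 18 with 143 CPM lay close to WT 2 with 135 CPM (log2 fold change 0.82, SE 0.28, edgeR adjusted p = 0.224). Tcof1, the treacle protein that recruits the polymerase, had 50.6, 18.5, 29.4 and 42.3 CPM in WT tumors and 119.7, 66.0, 73.2, 56.2 and 78.4 CPM in null tumors. Every null tumor exceeded WT 2, the highest WT tumor, and WT 3 had the lowest value (log2 fold change 1.16, SE 0.32, edgeR adjusted p = 0.201). The second-largest polymerase subunit, Polr1b, had a log2 fold change of 0.68 that came to 0.34 without null 7, where it stood at 100.2 CPM against 32.8 to 52.0 CPM in the other null tumors. The initiation factor Rrn3 had 0.21.

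The 3 box C/D snoRNP proteins, which carry out and scaffold ribose methylation of ribosomal RNA, had small fitted differences, with log2 fold changes of 0.41 for the methyltransferase Fbl, 0.19 for Nop56 and 0.31 for Nop58. Nop56, with the highest mean CPM of the 3 (not corrected for length), had 100.4, 221, 253 and 153 CPM in WT tumors and 349, 164, 199, 179 and 146 CPM in null tumors. WT 3 and WT 6 lay above every null tumor but null 7, and the fold change was -0.07 without null 7. Without null 7 the median of the 3 was 0.10.

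Box H/ACA snoRNPs turn uridine into pseudouridine, and 5 genes were listed under them. Of these, only Nolc1 had an unadjusted p under 0.05 (7.64% of all genes were higher). Nolc1 is not a core protein of these particles but a chaperone that accompanies snoRNPs into the nucleolus. It had 72.1, 39.4, 60.3 and 53.1 CPM in WT tumors and 222, 113, 100.2, 119 and 87.6 CPM in null tumors, with no overlap and with null 7 far above null 18, the next tumor (log2 fold change 1.19, SE 0.31, edgeR adjusted p = 0.201, and 0.92 without null 7). The pseudouridine synthase Dkc1 and the core protein Gar1 had log2 fold changes of 0.32 and 0.42. The other two core proteins lay below 0, Nhp2 at -0.33 and Nop10 at -0.60. Nhp2 had 64.1, 189, 133 and 65.5 CPM in WT tumors and 156, 77.0, 90.2, 79.4 and 45.3 CPM in null tumors. WT 3 was the highest tumor for both Nhp2 and Nop10, the groups overlapped, and without WT 3 the fold change of Nhp2 was 0.07.

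Among 4 nucleolar RNA-binding proteins and helicases, 3 were higher at an unadjusted p under 0.05 (7.64% of all genes) and Npm1 was not. Nucleolin (Ncl), which binds nascent ribosomal RNA, had 516, 215, 368 and 447 CPM in WT tumors and 1395, 637, 470.5, 614 and 519 CPM in null tumors. The groups overlapped, since null 15 lay below WT 2, and the log2 fold change of 0.91 (SE 0.38, edgeR adjusted p = 0.261) was 0.56 without null 7. The RNA helicase Ddx21 had 103, 33.8, 50.9 and 86.9 CPM in WT tumors and 213, 126, 67.5, 130.0 and 92.7 CPM in null tumors, again overlapping, with null 15 below WT 2 and WT 9 (log2 fold change 0.88). Mybbp1a, a nucleolar protein that binds transcription factors and takes part in precursor processing, had 166, 137, 192 and 201 CPM in WT tumors and 418, 217, 431, 304 and 365 CPM in null tumors. Its groups did not overlap, it was 1 of the 5 genes that did not peak in null 7, and its fold change of 0.996 (SE 0.25, edgeR adjusted p = 0.201) was 0.94 without that tumor. Nucleophosmin (Npm1), a chaperone of ribosomal proteins, had 440.1, 1150.3, 870.5 and 436 CPM in WT tumors and 1150.0, 607, 514, 746 and 335 CPM in null tumors. WT 3 and null 7 were both near 1150 CPM, the groups overlapped fully, and the log2 fold change was -0.11 (SE 0.41) and 0.24 without WT 3.

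**Figure D3:**
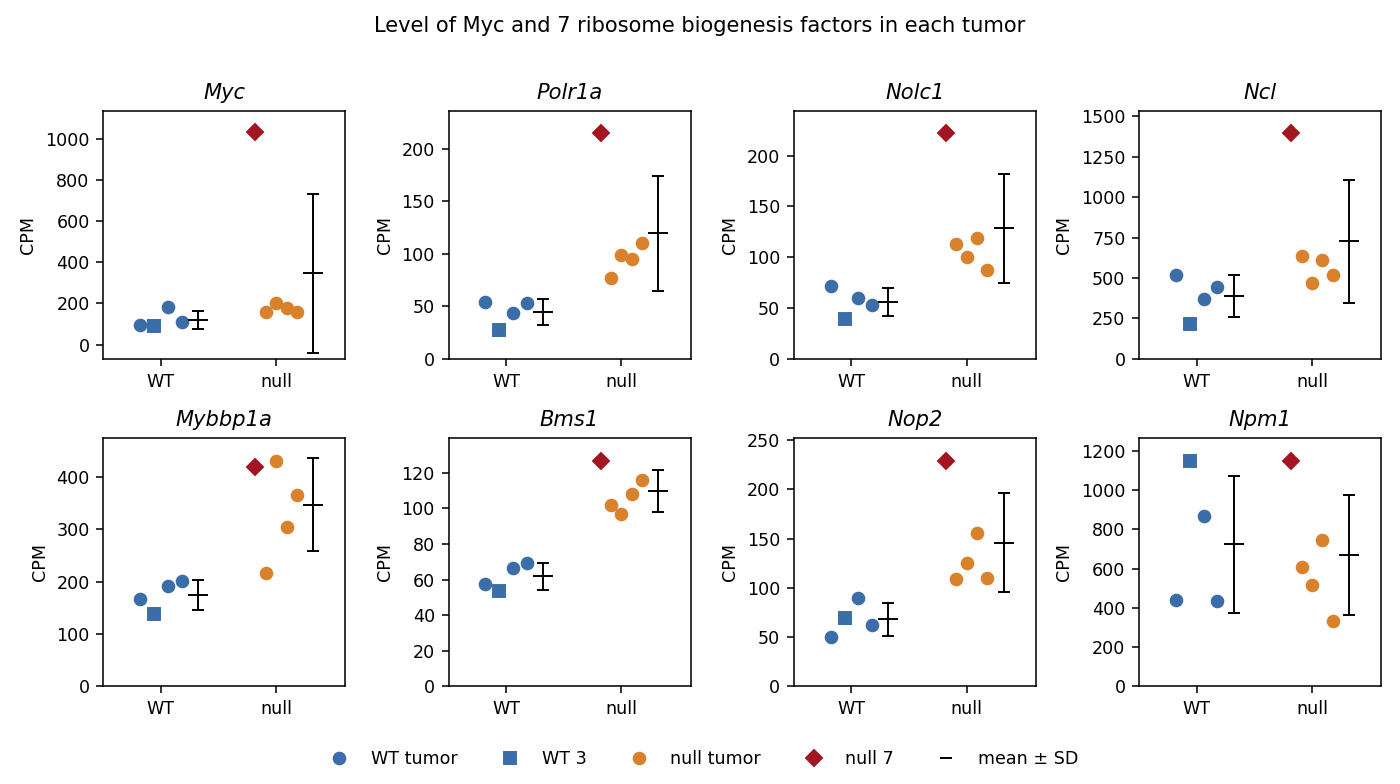
Level in CPM (vertical axes, each with its own range) of Myc and 7 factors in each tumor, with the mean ± SD of the group beside the points; WT 3 is drawn as a square and null 7 as a diamond, and the SD bar of Myc in the null group reaches below 0 because 1 tumor sets it. Bms1, Polr1a, Nolc1, Mybbp1a and Nop2 show no overlap between the groups, while Npm1 is as high in WT 3 as in null 7.

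All 13 factors of small subunit assembly had fold changes above 0 (0.19 to 1.04), with a median of 0.65, or 0.52 without null 7. At an unadjusted p under 0.05, 7 of the 13 were higher, against 7.64% of all genes. Bms1, a GTPase of the processome that builds the small subunit, had the smallest p of the 40 genes by edgeR. It had 57.2, 53.8, 66.7 and 69.1 CPM in WT tumors and 127, 102, 96.6, 108 and 116 CPM in null tumors, where null 7 was only a little above the others. The means were 61.7 ± 7.36 and 109.8 ± 11.9 CPM, a difference of 1.78-fold (95% interval 1.36 to 2.32), and the log2 fold change was 0.83 (SE 0.17, edgeR adjusted p = 0.197) and 0.79 without null 7. DESeq2 gave it the smallest adjusted p of the 40 genes, 0.00017. Bms1 was already named among the leading genes when the 40 genes were chosen, so its values describe it and are no independent support.

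The processome members Nop14 and Noc4l bind each other. Nop14 had 42.6, 23.2, 33.9 and 38.97 CPM in WT tumors and 89.8, 50.3, 64.8, 71.0 and 49.1 CPM in null tumors, with no overlap (log2 fold change 0.91). Noc4l had 39.2, 25.8, 46.2 and 35.7 CPM in WT tumors and 81.9, 53.1, 55.7, 54.4 and 44.1 CPM in null tumors, and WT 6 lay above null 23 (log2 fold change 0.65). The subcomplex that first meets the nascent precursor was represented by Utp4, Utp15, Heatr1 and Wdr43. Utp15 had 24.4, 14.2, 30.1 and 21.7 CPM in WT tumors and 64.9, 34.6, 36.4, 38.0 and 37.3 CPM in null tumors, and Heatr1 had 37.3, 20.6, 37.0 and 33.7 and 81.3, 47.2, 46.9, 49.4 and 51.4 CPM. Neither gene's groups overlapped, and the 4 null tumors other than null 7 lay within 34.6 to 38.0 CPM for Utp15 and 46.9 to 51.4 CPM for Heatr1 (log2 fold changes 0.90 and 0.78). Utp4 had 35.0, 61.7, 55.0 and 52.3 CPM in WT tumors and 143, 71.5, 74.7, 64.0 and 57.4 CPM in null tumors, where null 23 lay below WT 3 (log2 fold change 0.69, and 0.40 without null 7). Wdr43, with the highest mean CPM of the 13 over all tumors, had 59.6, 81.7, 121 and 74.1 CPM in WT tumors and 147, 88.8, 84.1, 102 and 80.5 CPM in null tumors. Its groups overlapped widely (log2 fold change 0.26).

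Rrp12, which takes the small subunit precursor out of the nucleus, had 23.9, 6.70, 9.93 and 10.9 CPM in WT tumors and 44.2, 24.9, 19.9, 23.7 and 19.1 CPM in null tumors. WT 2 lay among the null tumors and the other 3 WT tumors lay below them (log2 fold change 1.04, SE 0.40, edgeR adjusted p = 0.242). The remaining 5 small subunit factors had log2 fold changes of 0.61 for the processome scaffold Utp20, 0.56 for the snoRNP protein Rrp9, 0.54 for the late factor Bysl, 0.27 for the export factor Ltv1 and 0.19 for the helicase cofactor Utp14a. None of the 5 had an unadjusted p under 0.05, and all had overlapping groups.

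Large subunit assembly was split. Of 9 factors, 3 were higher at an unadjusted p under 0.05 (7.64% of all genes), namely Nop2, Noc2l and Noc3l. In these 3 every null tumor lay above every WT tumor (3.42% of all genes). Nop2, a methyltransferase of large subunit RNA, had 50.3, 69.5, 89.4 and 61.9 CPM in WT tumors and 229, 109, 125, 155 and 110.0 CPM in null tumors, where null 14, the lowest, stood above WT 6, the highest WT tumor (log2 fold change 1.10, SE 0.28, edgeR adjusted p = 0.201, and 0.89 without null 7). Noc2l had 106, 60.3, 87.1 and 114 CPM in WT tumors and 272, 164, 119, 148 and 161 CPM in null tumors, and its partner Noc3l had 23.6, 15.4, 27.0 and 17.01 and 48.9, 29.6, 30.3, 34.0 and 29.6 CPM. Null 15 for Noc2l and null 14 and null 23 for Noc3l were nearest to the WT range (log2 fold changes 0.91 and 0.73).

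The trimeric complex of Pes1, Bop1 and Wdr12, needed for cutting the precursor at the large subunit, had fold changes of 0.18, 0.55 and 0.19, and without null 7 of 0.03, 0.24 and -0.30. In null 7 Wdr12 stood at 63.4 CPM against 17.4 to 24.4 CPM in the other null tumors, and Bop1 at 157 against 60.1 to 77.2 CPM. Bop1 is the nearest of the 40 genes to Scrib, 0.383 Mb away on chromosome 15. Rrs1, which brings in a ribonucleoprotein of the large subunit, had 0.47, and Nop16 had 0.15. The nucleolar GTPase nucleostemin (Gnl3) was the 1 large subunit factor below 0 (-0.07). None of these 6 genes had an unadjusted p under 0.05.

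**Figure D4:**
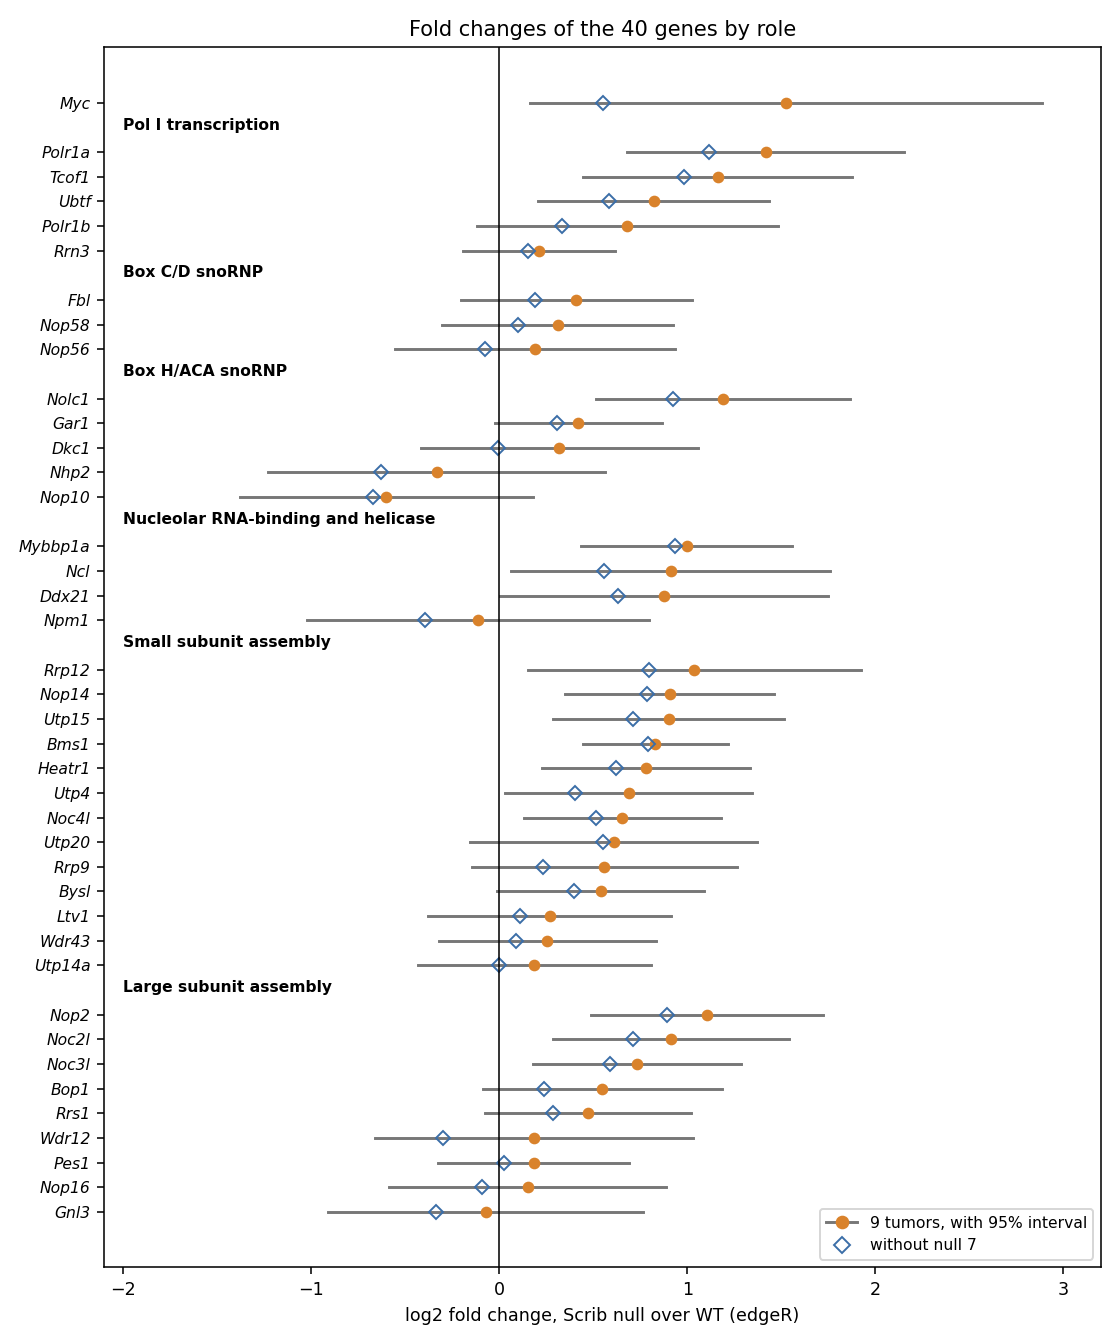
Log2 fold change of each of the 40 genes (orange circles, horizontal axis) with its 95% interval from edgeR, grouped by role, and the same without null 7 (open blue diamonds). Most circles lie right of 0, the diamonds lie left of the circles for every gene, and Myc moves farthest, from 1.53 to 0.55.

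Per kilobase of exonic sequence, a rough scale for setting levels of different genes side by side, Npm1 was the highest of the 40 genes. Its mean was 272 CPM per kb in the WT and 252 in the null tumors. Nhp2 followed in the WT with 98.4, then Nop10 with 71.9, Nop56 with 44.4 and Myc with 44.2 CPM per kb. In the null tumors Myc was second with 127 CPM per kb, a mean set by null 7. The lowest on this scale was Wdr12, with 2.16 and 2.46 CPM per kb. The order depended on the length used, here all exonic bases of a gene. Both lengths used come from the annotation, and which transcripts of a gene were present was not determined. Per kilobase of the longest coding transcript, Npm1 (444) and Nhp2 (108) were still the highest in the WT and Myc (148) still second in the null tumors, but Nop56 (96.9) and Fbl (89.2) lay above Nop10 (71.9) and Myc (51.3) in the WT.

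Fold changes also moved with gene length in this data set. Over 16158 tested genes with a length, Spearman's rho between the log2 fold change and exonic bases was 0.29, and over the 39 factors it was 0.32 (0.54 with the length of the longest coding transcript, against 0.36 over all genes). These are correlations across genes, which share the same 9 libraries. Median fold changes ran from -0.42 in the shortest of 20 length bins to 0.28 in the longest. The shortest factors Nop10 (1109 exonic bases) and Nhp2 (1146) lay below 0, and the long Polr1a (11871) lay highest. Other factors departed from this order by exonic bases: the longest, Wdr12 (11955), had 0.19 and Nop58 (10758) 0.31, Gnl3 (6101) lay below 0, and Nop2 (2772) had 1.10. The departure of Gnl3 depended on the length used, since its longest coding transcript had 1947 bases. Those of Wdr12 and Nop58 had 10012 and 9507 bases. After the median of its length bin was subtracted, Nhp2 stood at 0.06, Npm1 at 0.06, Nop10 at -0.21, Polr1a at 1.19 and Bms1 at 0.80. The part of length in the differences between the groups was not tested further.

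Most genes that encode the ribosomal proteins themselves had fold changes below 0 in the fit over 9 tumors, by an amount that rested largely on WT 3. Of 76 cytosolic ribosomal protein genes, 72 had fold changes below 0 (52.2% of all genes), with a median of -0.78, and 75 did without null 7, with a median of -0.95. Without WT 3, 53 lay below 0 (48.8% of all genes) with a median of -0.15, and without both tumors 70 did with a median of -0.35. Their mean log2 CPM was 8.77, 10.91, 10.07 and 9.23 in the WT tumors and 9.89, 9.21, 9.24, 9.09 and 8.75 in the null tumors. WT 3 and WT 6 were thus the highest tumors, and WT 2 and WT 9 lay within the range of the null tumors. At an unadjusted p under 0.05, 10 were lower and 1 higher (10% and 7.64% of all genes), so the share that was lower lay near that of all genes. The lower count was 44 without WT 2 (11.7% of all genes), 27 without WT 9 (9.56%) and 25 without null 7 (8.61%). It was 1 without WT 3 (6.61%) and 1 or 2 without any other tumor (7.17% to 9.7%). With the non-epithelial covariate, which separated the groups by itself, 75 of the 76 lay below 0 (47.5% of all genes) with a median of -1.40. In that run 58 were lower (7.08%). The lower count was 30 with the sex covariate (9.9%), 26 by DESeq2 (12.2%), and 2 with the proliferation covariate (5.27%) or by limma-voom (8.66%). None of the 76 passed the adjusted test of the main run (edgeR adjusted p from 0.172 to 0.988), and DESeq2 called 1 lower. Rpl3 had 1805 ± 846 CPM in WT tumors and 435 ± 157 CPM in null tumors, with no overlap (log2 fold change -2.05), and Rpl29 was the gene that was higher (105 ± 19.7 and 233 ± 141 CPM, log2 fold change 1.15). Summed over the 76 genes, the null tumors held 42539 to 98591 CPM and the WT tumors 42664 to 198367 CPM, so the ranges overlapped.

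**Figure D5:**
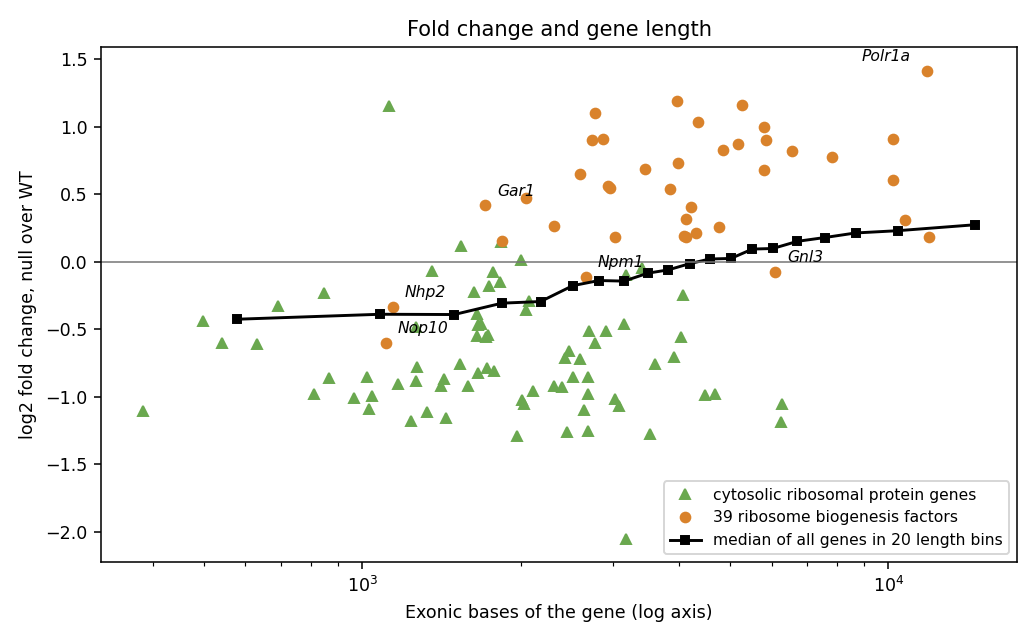
Log2 fold change of the 39 factors (orange circles) and of 76 cytosolic ribosomal protein genes (green triangles) against the exonic bases of the gene (log axis), with the median of all tested genes in 20 length bins as a black line. At the same length the factors lie mostly above the line and the ribosomal protein genes below it.

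Other genes of the pathway, in lists drawn up with earlier results of these data known, had a smaller median difference of the same sign. Of 109 further ribosome biogenesis genes, 75 had fold changes above 0, with a median of 0.22 (-0.03 over all genes). At an unadjusted p under 0.05, 25 were higher and none lower (7.64% and 10% of all genes), and none passed the adjusted test. Among 43 small subunit factors, Pdcd11, a scaffold of precursor cleavage, had 41.2 ± 13.3 CPM in WT tumors and 92.8 ± 35.3 CPM in null tumors. Log2 fold changes were 1.17 for Pdcd11, 1.13 for Nol6, 0.84 for the helicase Dhx37 and 0.76 for Aatf. Among 49 large subunit factors, 12 were higher at an unadjusted p under 0.05 (7.64% of all genes). Pelp1, of a complex that processes the spacer RNA, had 37.0 ± 12.1 and 70.0 ± 12.3 CPM (log2 fold change 0.92). The GTPase Gtpbp4 had 0.91, the methyltransferase Ftsj3 0.83 and Tex10 0.65. Eif6, which keeps the large subunit from joining the small one too early, lay below 0 at -0.42. Among 17 other polymerase I and snoRNP genes, 9 lay above 0 with a median of 0.13 (-0.16 without null 7), led by the H/ACA assembly factor Naf1 (0.87), the polymerase subunit Cd3eap (0.70) and the ATPases Ruvbl1 (0.63) and Ruvbl2 (0.52).

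Partners and competitors of MYC were mixed. Of 18 genes of the MYC network, 10 lay above 0 (47.8% of all genes), 4 were higher and 2 lower at an unadjusted p under 0.05 (7.64% and 10% of all genes), and none passed the adjusted test. The obligate partner Max had 53.5 ± 4.07 CPM in WT tumors and 60.9 ± 16.9 CPM in null tumors (log2 fold change 0.19). Mxi1 and Mnt, repressors that compete for MAX, had fold changes of 0.77 and 0.71, the related Mxd3 had -1.16, and the ubiquitin ligase Huwe1 had 0.88. The paralog Mycn had 35.0 ± 16.4 CPM in WT tumors and 19.6 ± 15.7 CPM in null tumors, and the paralog Mycl had 12.2 ± 3.02 and 11.2 ± 6.66 CPM (log2 fold changes -0.84 and -0.13). 

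Of 30 MYC target genes outside the nucleolus, 22 lay above 0 with a median of 0.23, and 5 were higher and 2 lower at an unadjusted p under 0.05 (7.64% and 10% of all genes). Without null 7, 18 lay above 0 with a median of 0.09. Odc1, the first enzyme of polyamine synthesis and a classical MYC target, had 148, 292, 289 and 239 CPM in WT tumors and 433, 382, 319, 306 and 305 CPM in null tumors, with no overlap (log2 fold change 0.53, SE 0.25, edgeR adjusted p = 0.298). The mitochondrial folate enzymes Mthfd2 and Shmt2 had fold changes of 1.14 and 0.88, the pyrimidine synthesis enzyme Cad 1.12, and the peroxidase Prdx4 -1.42. Of 12 genes of MTOR growth signalling, 3 were higher (Rptor 0.74, Tsc2 0.65 and Mtor 0.84) and 1 lower (Rheb -0.49) at an unadjusted p under 0.05 (7.64% and 10% of all genes). Of 18 proliferation genes, 14 lay above 0 with a median of 0.43, and 7 were higher at an unadjusted p under 0.05 (7.64% of all genes). Among the 7 were the replicative helicase subunits Mcm2 (1.09), Mcm6 (0.92), Mcm3 (0.64) and Mcm7 (0.62). Mki67, a marker of cycling cells, had 72.6 ± 34.9 and 110.3 ± 59.5 CPM (0.60). None of the genes of these lists passed the adjusted test. With the mean level of the proliferation genes as a covariate, 34 of 39 factors lay above 0 with a median of 0.51, and 11 of the 40 genes had an unadjusted p under 0.05 (4.56% of all genes).

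Factor levels were also set against Myc from tumor to tumor, on log2 CPM over the 9 tumors, with exact two-sided permutation of the pairings and adjustment over 16168 genes. Pearson's r was above 0 for all 39 factors, against 51.2% of all genes, with a median of 0.80, against 0.02. No gene passed an adjusted p under 0.05 by r (0%) or by Spearman's rho. At an unadjusted p under 0.05, 29 factors and 17.1% of all genes passed by r, and 13 factors and 8.1% of all genes by rho. Null 7 was the point farthest from the rest. Without null 7 and WT 3, the 2 tumors farthest from the median of Myc, r was above 0 for 34 of 39 factors (45.5% of all genes), its median was 0.53 (-0.06 over all genes), and 10 factors passed an unadjusted p under 0.05 (9.83%). With the group means removed and all 9 tumors kept, null 7 among them, r was above 0 for all 39 with a median of 0.77 (0.01 over all genes). With the group means kept and null 7 alone left out, r was above 0 for 33 of 39 factors (50.4% of all genes), with a median of 0.54. With 4 and 5 tumors, no r is given within a group.

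Polr1b had the smallest permutation p of the 39 factors, with r = 0.92 (exact permutation p = 0.000187, adjusted p = 0.0991) and rho = 0.95 (exact permutation p = 0.000353, adjusted p = 0.285), and r = 0.76 without the 2 farthest tumors. It had 32.3, 19.2, 44.4 and 35.5 CPM in WT tumors and 100.2, 32.8, 52.0, 39.5 and 39.3 CPM in null tumors, so WT 6, the WT tumor with the most Myc, was also the WT tumor with the most Polr1b. Noc4l (r = 0.87), Nop2 (0.86), Fbl (0.86) and Utp4 (0.89) kept an r of 0.85, 0.89, 0.87 and 0.84 without those 2 tumors. For other factors the relation rested on them. Bop1 had the highest r of the factors, 0.94, and 0.36 without them. Ncl went from 0.82 to -0.02. Bms1 had r = 0.70 and 0.65 without them. Over all 9 tumors Nop10 (0.00216), Nhp2 (0.35) and Utp20 (0.40) had the lowest r. This order did not hold without the 2 tumors, where they had 0.54, 0.49 and -0.37 and Ltv1 had the lowest r (-0.52), nor by rho, which was lowest for Utp14a (0.07). The non-epithelial marker mean of null 7 was the lowest of the 9 tumors, and its part in these correlations was not tested.

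Some values are less certain because reads could be shared with another gene. The sources used here do not say whether the libraries were stranded. Bysl shares 361 exonic bases with Ccnd3 on the opposite strand, a gene with a mean of 102 CPM, and Heatr1 shares 155 with Lgals8, Mybbp1a 131 with Spns2 and Bop1 50 with Mroh1. Fbl has a stretch nearly identical to one in Tulp4, which had a mean of 81.3 CPM. Processed copies of Npm1 in the table added up to 0.253% of the level of Npm1, and copies of Nop56, Pes1 and Wdr12 to 0.307% or less.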

How the data were processed

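RNA was measured in 9 primary pancreatic tumors, 4 labelled Scrib WT and 5 Scrib null. The authors deposited estimated counts per Ensembl gene, not normalized and partly fractional, 1 column per tumor. The submitters' processing notes list Salmon 1.4.0, DESeq 2, GRCm38 and mm10, with no roles. Annotation release and strand setting are not given in the sources used here. Of 54453 rows, 54200 received a symbol from GENCODE M21, and in 23854 every tumor had 0.

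The counts were rounded, a shift of at most 0.5. Low genes were removed with filterByExpr (minimum count 10, minimum total 15). Groups were compared with the quasi-likelihood test of edgeR 4.0.16 after TMM scaling, in R 4.3.3, with no covariate, adjusting p over all 16169 genes (threshold 0.05). Standard errors (SE) were taken as the absolute log2 fold change over the square root of F. DESeq2 1.42.0 and limma-voom 3.58.1 were alternatives, as were other scalings, filters, covariates and sets of tumors. Log2 CPM used a prior count of 2. The fit and the correlation were checked on simulated data. Near-identical copies were sought with BLASTN 2.17.0 (at least 95% identity over 300 bases). Totals of 10145830 to 27596832 counts per tumor left counting error small beside the spread between tumors.

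The 40 genes and all lists were chosen with earlier results of these data known. Per-tumor values are given for Myc, Bms1, each gene with an unadjusted p under 0.05 and the gene of highest mean CPM in each role. The other genes are given by fold change, and from each further list at most 4 genes of smallest p plus Max, Mycn, Mycl, Odc1, Eif6 and Mki67. Polr1b, the 2 ribosomal protein genes and the neighbours of Myc were added after their values were seen.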

Additional observations from a re-analysis of the deposited data

Results flagged for a closer look

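A tumor was singled out where its gap to the nearest other tumor of its group, divided by the range of the group, exceeded Dixon's 95% limit. Chance does this in about 1 in 20 groups. Of 88 groups tested (the 40 genes and 4 neighbours of Myc, in each genotype), 21 were singled out, 20 of them for null 7 as the highest null tumor, and 16 of those among the 80 groups of the 40 genes. The 4 neighbours were picked because null 7 was more than 5-fold above the highest other tumor. Their flags for null 7 therefore follow from that choice and cannot be set against the rate of chance.

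Among the null tumors, null 7 stood apart for Myc (1032 CPM), for the polymerase genes Polr1a (215 CPM) and Polr1b (100.2 CPM), and for the snoRNP genes Nop56 (349 CPM), Nop58 (195 CPM), Dkc1 (113 CPM) and Nolc1 (222 CPM). It also stood apart for Ncl (1395 CPM), for the small subunit factors Rrp9 (83.96 CPM), Rrp12 (44.2 CPM), Utp4 (143 CPM), Utp15 (64.9 CPM) and Heatr1 (81.3 CPM), and for the large subunit factors Bop1 (157 CPM), Wdr12 (63.4 CPM) and Noc3l (48.9 CPM). Near Myc, it stood apart for Fam84b (1753 CPM), 9930014A18Rik (126 CPM), Gm38563 (14.0 CPM) and Pvt1 (194 CPM). These values come from 1 library and share its scaling, so they are not independent of each other. In the WT group 1 value was singled out, Pes1 in WT 9, with 77.4 CPM against 91.8 to 92.3 CPM in the other WT tumors.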

How the results depend on the processing

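Of the summary values under all alternatives, 220 were labelled the same as in the main run, 39 moved and 1 reversed. A count was labelled the same when it equalled that of the main run or lay within a fixed ratio of it. Counts that stayed at 0 are among the 220. Causes were not tested. Genes higher and lower in the null tumors at an adjusted p under 0.05 numbered 1 and 6 with no low-count filter, 246 and 392 by DESeq2, and 1 and 1 by limma-voom. The lower count was 1 with sex as a covariate and 0 with the non-epithelial or the proliferation covariate and without both WT 3 and null 7. Among runs chosen after seeing the data, the 6 female tumors gave 3 higher and 1 lower, DESeq2 without null 7 gave 155 and 315, and DESeq2 without both tumors gave 93 and 223. Of the 40 genes, DESeq2 called 8, 5 without null 7 and 3 (Polr1a, Nolc1 and Bms1) without both (0.558% of all genes). Those higher at an unadjusted p under 0.05 numbered 3 with the non-epithelial covariate, where 3 were lower (6.21% and 7.08% of all genes), and 11 with the proliferation covariate (4.56%), in the 6 female tumors (3.01%) and by DESeq2 without both tumors (5.67%). With the non-epithelial covariate 23 of 39 factors lay above 0, their median was 0.11, and Myc had -0.21, Nop56 -0.45 and Wdr43 -0.23. Nop56 also lay below 0 without WT 2 (-0.01), without null 7 (-0.073) and by DESeq2 without null 7 (-0.10). Nhp2 lay above 0 without WT 3 (0.0702) and after subtracting length-bin medians (0.055), and Npm1 without WT 3 (0.24), without null 23 (0.06) and after that subtraction (0.065). With each tumor left out in turn, Nop56 ranged from -0.073 to 0.39, Nhp2 from -0.63 to 0.0702 and Npm1 from -0.39 to 0.24. In the same runs 0 genes were called higher and 0 to 1 lower, and 0 of the 40 passed the adjusted test. Of the 40, 13 (without null 7) to 19 were higher and 0 to 1 lower at an unadjusted p under 0.05. The shares of all genes in those runs were 4.82% to 10.7% higher and 6.61% to 11.7% lower. From 30 to 37 factors lay above 0, and their median ranged from 0.34 (without null 7) to 0.63. Myc ranged from 0.55 (without null 7) to 1.80 and Scrib from -0.48 to -0.09. In these runs r with Myc was above 0 for 33 to 39 factors. With RLE scaling 1 gene passed the adjusted test of correlation with Myc. Promoter windows with CACGTG numbered 2 in the first 250 bases and 18 with CACGCG allowed. DESeq2 gave no p for Myc. No paired analysis was possible because the groups share no tumor number. The spread between 4 and 5 tumors limits the precision, and depth does not, since the lowest count was 78.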
